A study of Mus musculus with 20 samples.

Results

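The cells described here are Tet2 knockout CD8 T cells from B16-OVA melanomas of mice that were given anti-PD-L1, compared with the same kind of cells from untreated mice. The donor T cells lacked Tet2 (Tet2-/-) and carried OT-I, a transgenic T cell receptor for a peptide of chicken ovalbumin. They were transferred into mice whose B16 melanoma cells had been engineered to make ovalbumin. Both libraries held tumour-infiltrating cells taken 8 days after transfer, and both came from knockout donors. Each group was 1 droplet library made with 10x Genomics 3′ chemistry, which tags the 3′ end of each captured RNA with a unique molecular identifier (UMI). The dose and timing of the antibody, the number of mice behind a library and the state of the host's own T cells are all not given in the sources consulted. A second pair of libraries, wild-type OT-I cells with and without anti-PD-L1 at the same day, is set beside the knockout pair where it helps and shares no library with it.

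A cell was counted as a CD8 T cell if it had at least 3 UMIs of Cd3d, Cd3e and Cd3g together and at least 1 of Cd8a and Cd8b1. It also had to have under 5 UMIs of the macrophage genes C1qa, C1qb, C1qc and Lyz2 and under 10 of the melanoma genes Mlana, Pmel, Dct and Tyrp1. This gave 2548 knockout CD8 T cells, 1017 with anti-PD-L1 and 1531 untreated, of 3498 kept cells in these libraries and of 4930 CD8 T cells in the series. Non-mitotic cells, those with under 4 UMIs of Mki67, Top2a, Birc5, Ube2c, Cenpf and Ccna2 together, numbered 670 with anti-PD-L1 and 896 untreated. At the CD3 threshold 4 cells with anti-PD-L1 and 8 untreated had exactly 3 UMIs, and 1 and 6 had 2 and stayed out. At the mitotic threshold 22 cells with anti-PD-L1 and 60 untreated had 3 UMIs, and 21 and 52 had 4. These genes chose the cells, so their own levels are no result. None of them marks donor cells. CD8 T cells of the host, if present, were therefore counted with the donor cells and carry the donor's label here.

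PD-1 is an inhibitory receptor that T cells display after antigen recognition. Its ligand PD-L1 is made by tumour and myeloid cells, and antibodies that block it release part of that inhibition. In chronic infection and in tumours, CD8 T cells range from progenitor cells marked by the transcription factor TCF-1 (Tcf7), which can renew themselves, to effector-like and terminally exhausted cells. The terminal cells carry several inhibitory receptors, among them TIM-3 (Havcr2). TET2 oxidises 5-methylcytosine in DNA, and T cells without it are known to differentiate differently after activation.

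The 2 libraries were of nearly equal size over these cells, with 7999840 UMIs with anti-PD-L1 and 7941389 untreated, but not of equal depth per cell. The median CD8 T cell had 6854 UMIs with anti-PD-L1 and 4483 untreated. Macrophage-gated cells of the same libraries (20 or more UMIs of the 4 macrophage genes and none of CD3 or CD8, 128 with anti-PD-L1 and 292 untreated) differed in the same direction, with medians of 9040 UMIs with anti-PD-L1 and 4625.5 untreated. Shares of cells below were therefore taken after each cell was thinned to 2600 UMIs, which left out 21 cells with anti-PD-L1 and 140 untreated. Tet2 had 142 UMIs (17.8 CPM) with anti-PD-L1 and 184 UMIs (23.2 CPM) untreated in the knockout, against 127 UMIs (15.6 CPM) and 65 UMIs (13.7 CPM) in the wild type. CPM is the share of the summed UMIs, scaled to 1000000. Since the deleted stretch of Tet2 is not named in the labels and the tags lie at the 3′ end, this level checks nothing about the genotype. Of the other cell types, B cells had the defining gene Ms4a1 at 0 in both libraries, NK cells had Ncr1 at 0 in both, and Cd4 had 6 UMIs with anti-PD-L1 and 5 untreated. The 14 macrophage markers summed to 66.5 CPM with anti-PD-L1 and 236 CPM untreated, with Cd74 at 19.0 and 123 CPM and H2-Aa at 5.50 and 60.3 CPM. The 10 melanoma markers summed to 19.6 CPM with anti-PD-L1 and 32.4 CPM untreated, the 8 dendritic cell markers to 9.75 and 9.82 CPM with Cd209a at 0 in both, and the 6 mast cell and neutrophil markers to 1.38 and 0.63 CPM. The 6 B cell markers summed to 159 and 293 CPM, nearly all Ighm, the 8 NK markers to 733 and 397 CPM, mostly Gzma, and the 5 CD4 and regulatory T cell markers to 281 and 279 CPM. The 5 erythroid markers summed to 279 CPM with anti-PD-L1 and 487 CPM untreated. Doublets were not removed. Kept cells of the 2 libraries shared 3 barcodes.

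With 1 library per group no difference was tested. Intervals cover counting error only, and UMIs of 1 cell are not independent. A gene was called higher or lower if its mean over both libraries was at least 20 CPM and its CPM differed at least 1.5-fold. Of 4619 genes past that floor, 130 were higher with anti-PD-L1, which is 2.81%, and 49 were lower, which is 1.06%. The median log2 ratio over all of them was -0.006. The highest and lowest genes described below were picked from this same contrast, so their ratios are a description. To be named by size, a gene had to be called in the same direction in non-mitotic cells, in the other listing of the barcodes and with every cell weighted equally, and no cell could hold over 20% of its UMIs. In all 72 genes met this rule upwards and 22 downwards, and 14 of the 15 at each end are named.

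Inflammatory chemokines, which draw in other immune cells, were higher with anti-PD-L1. Ccl4 had 1681 CPM with anti-PD-L1 and 570.1 CPM untreated, a log2 ratio of 1.56 (95% interval 1.51 to 1.61). Ccl3 had 655 CPM with anti-PD-L1 and 253 CPM untreated (log2 1.37, 1.29 to 1.44). Ccl5 had 4310 CPM with anti-PD-L1 and 2141 CPM untreated (log2 1.01, 0.98 to 1.04). Cells with a UMI of Ccl4 made up 41.4% (38.3% to 44.5%) with anti-PD-L1 and 24.9% (22.6% to 27.2%) untreated after thinning, and 56.4% and 33.6% before it. Positive cells held a mean of 14.7 Ccl4 UMIs with anti-PD-L1 and 7.26 untreated, at the same depth of 2600. Cells with at least 5 Ccl4 UMIs made up 16.5% (14.2% to 18.9%) with anti-PD-L1 and 6.90% (5.63% to 8.36%) untreated. Macrophages make these chemokines too, and 46.5% with anti-PD-L1 and 27.4% untreated of macrophage-gated cells had a Ccl4 UMI, while 0 of 29 and 0 of 139 melanoma-gated cells did, which allows shares of up to 10.3% and 2.16%. In macrophage-gated cells the log2 ratio of Ccl4 was 0.78 and that of Ccl3 0.39. Cells with a Ccl5 UMI made up 77.1% with anti-PD-L1 and 55.0% untreated after thinning, but 51.2% and 59.1% of macrophage-gated cells and 34.5% and 36.0% of melanoma-gated cells had one, so the untreated share was at the macrophage level. The part of macrophages in the CD8 T cell values was not tested.

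The list of cytokines and chemokines had 9 of 15 members past the floor, of which 5 were higher and none lower, with a median log2 ratio of 0.68. Besides Ccl3, Ccl4 and Ccl5, these were Ifng and Ccl9. Ifng, the cytokine interferon gamma, had 423 CPM with anti-PD-L1 and 208 CPM untreated (log2 1.03), with 1 cell holding 14% of its UMIs in the treated library. Ccl9 had 54.3 CPM with anti-PD-L1 and 33.9 CPM untreated (log2 0.68), and 1 cell held 13% and 17% of its UMIs. Xcl1, which attracts cross-presenting dendritic cells, had 1341 CPM with anti-PD-L1 and 1035 CPM untreated (log2 0.37), under the call, and its share of thinned cells did not follow, at 35.8% and 39.8%. Annotated Ccl3 lies at chr11:83647843-83649378 and Ccl4 at chr11:83648624-83664683 (RefSeq, GRCm38.p6). Those spans overlap by 755 bases, and how reads in the overlap were counted is not given in the sources used here.

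**Figure D1:**
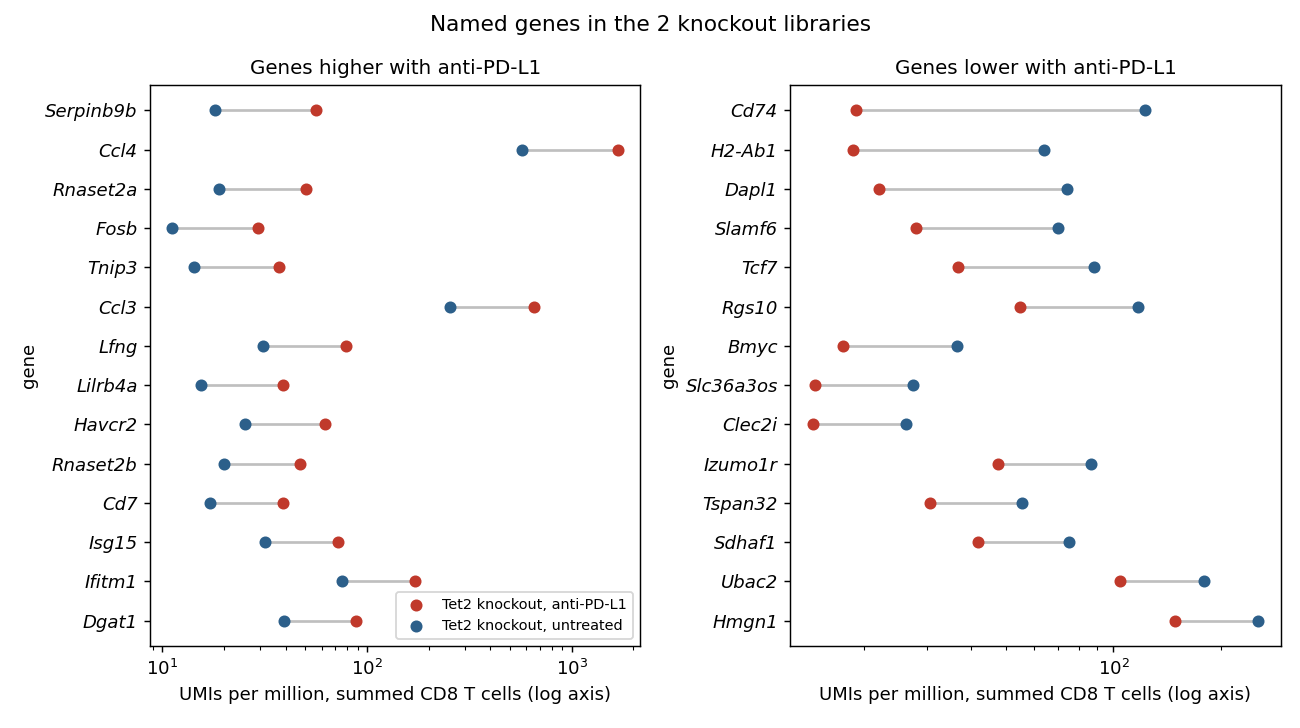
CPM on a log axis of the 14 named genes higher with anti-PD-L1 (left) and the 14 lower (right) in summed knockout CD8 T cells; red points are the library with anti-PD-L1, blue points the untreated library, and there are no replicates. Ccl4 is the most abundant of them, at 1681 CPM with anti-PD-L1 against 570.1 CPM untreated, and most other named genes lie under 200 CPM.

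Genes of the cytotoxic granule were the next group. Gzmb, the protease granzyme B, had 2686 CPM with anti-PD-L1 and 1420 CPM untreated (log2 0.92, 0.89 to 0.95). Cells with a Gzmb UMI made up 74.7% (71.9% to 77.4%) with anti-PD-L1 and 55.2% (52.6% to 57.9%) untreated after thinning, against 2.36% and 1.09% of macrophage-gated cells. Before thinning they made up 81.6% and 62.1%. Gzma had 688 CPM with anti-PD-L1 and 354 CPM untreated (log2 0.96, 0.89 to 1.02). Of 10 of 18 cytotoxic genes past the floor, 3 were higher and none lower, and the median log2 ratio was 0.29. The third was Gzmc, with 48.5 CPM with anti-PD-L1 and 19.3 CPM untreated (log2 1.33), but 1 cell held 31% of its UMIs with anti-PD-L1 and 42% untreated. Perforin (Prf1), which opens the target membrane for granzymes, lay under the floor at 23.9 CPM with anti-PD-L1 and 10.8 CPM untreated (log2 1.14, 0.77 to 1.52). The granule protein gene Nkg7 had 2887 CPM with anti-PD-L1 and 2522 CPM untreated (log2 0.20). Serpinb9b, a serpin related to the granzyme B inhibitor Serpinb9, had the largest ratio of the named genes, 56.3 CPM with anti-PD-L1 and 18.1 CPM untreated (log2 1.63, 1.36 to 1.91). Serpinb9 itself had 336 and 226 CPM (log2 0.57), just under the call.

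Within the list of inhibitory receptors and exhaustion genes, Havcr2 alone was called higher. It had 62.5 CPM with anti-PD-L1 and 25.3 CPM untreated (log2 1.30, 1.07 to 1.55). Cells with a Havcr2 UMI made up 15.6% (13.37% to 17.96%) with anti-PD-L1 and 6.90% (5.63% to 8.36%) untreated after thinning, and 30.9% and 10.7% before it. In melanoma-gated cells, which should lack it, 2 of 29 with anti-PD-L1 and 1 of 139 untreated had one, or 6.90% and 0.72%. Macrophages are known to express Havcr2, and 11.02% and 9.49% of macrophage-gated cells had a UMI. Pdcd1, which encodes PD-1, had 360 CPM with anti-PD-L1 and 243 CPM untreated (log2 0.57, 0.49 to 0.65). Ctla4 had 338 and 241 CPM (log2 0.49), and Lag3 had 474 and 356 CPM (log2 0.41). Tox, a regulator of exhaustion, went the other way at 36.0 CPM with anti-PD-L1 and 48.5 CPM untreated (log2 -0.43). Of the list's 7 members past the floor 6 had ratios above 0, and its median log2 ratio was 0.41. Of 6 PD-1 pathway genes past the floor none was higher, and Ptpn11, the phosphatase SHP-2 that PD-1 recruits, was lower at 25.4 CPM with anti-PD-L1 and 39.2 CPM untreated (log2 -0.63). Its log2 ratio was -0.53 both in the other listing of the barcodes and in sums over thinned cells, under the call of 0.58. PD-L1 itself (Cd274) had 13.2 CPM with anti-PD-L1 and 7.18 CPM untreated in these cells, under the floor.

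Promoters of Havcr2 and Gzmb are shown because these genes were higher together and both windows hold TGANTCA, the letters of the AP-1 element, which Fos and Jun proteins bind. Each is 300 bases, from 250 before to 50 after the annotated start, read 5′ to 3′ on the gene's strand from RefSeq (GRCm38.p6), with the match in capitals.
Havcr2, chr11:46454681-46454980, plus strand: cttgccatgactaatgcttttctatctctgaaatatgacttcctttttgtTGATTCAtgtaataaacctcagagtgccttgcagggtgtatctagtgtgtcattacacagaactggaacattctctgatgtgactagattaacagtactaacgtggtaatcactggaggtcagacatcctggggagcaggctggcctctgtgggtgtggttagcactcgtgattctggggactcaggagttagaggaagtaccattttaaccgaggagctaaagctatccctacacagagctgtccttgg
Gzmb, chr14:56262285-56262584, minus strand: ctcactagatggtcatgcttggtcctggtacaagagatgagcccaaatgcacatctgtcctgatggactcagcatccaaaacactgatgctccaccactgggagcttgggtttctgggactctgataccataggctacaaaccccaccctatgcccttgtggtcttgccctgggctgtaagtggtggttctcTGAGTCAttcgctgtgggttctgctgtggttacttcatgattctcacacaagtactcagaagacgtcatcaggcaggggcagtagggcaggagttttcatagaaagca
Searched on both strands, TGANTCA stood in 7.81% of the 32851 promoter windows of the table. Of the 36 genes picked by size or called in a list as higher, 28 had a window and 5 of these held it (Ccl9, Gzmb, Havcr2, Nfkb2 and Tnfrsf9), and of 19 such genes that were lower 16 had a window and none held it. The NF-kB motif, searched the same way, stood in 0.41% of windows and in that of Nfkb2 among these genes. The NFAT motif TGGAAA, also searched, stood in 21.43% of windows, in 12 of the 28 higher genes and in 1 of the 16 lower. For the TCF/LEF motif CTTTGAT these values were 3.73%, 2 and 0. Percentages are of windows, while a gene counted if any of its windows matched. A match describes the letters and not binding.

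Genes of T cell receptor signalling mostly had ratios above 0, in CD8 T cells and in macrophage-gated cells. Of 18 of 22 such genes past the floor 2 were higher and none lower, and 13 had ratios above 0, with a median log2 ratio of 0.34. In macrophage-gated cells of the same libraries 5 of 11 were higher, where 7.8% of all 4536 genes past the floor were, and the median was 0.56. Tnfrsf9, the costimulatory receptor 4-1BB, had 733 CPM with anti-PD-L1 and 421 CPM untreated (log2 0.80, 0.74 to 0.86). Dusp5, a phosphatase that acts on ERK, had 240 CPM with anti-PD-L1 and 130.1 CPM untreated (log2 0.88, 0.77 to 0.99). In macrophage-gated cells the log2 ratios of Tnfrsf9 and Dusp5 were 1.03 and 1.54. After thinning, Tnfrsf9 UMIs were in 69.68% of CD8 T cells with anti-PD-L1 and 51.98% untreated. Only 0.79% and 1.46% of macrophage-gated cells had one, so the ratio of Tnfrsf9 there rests on few cells. For Dusp5 the shares were 43.67% and 27.25% of CD8 T cells, and 20.47% and 6.57% of macrophage-gated cells. The part of macrophages in the CD8 T cell values of Tnfrsf9 and Dusp5 was not tested. Nr4a1, an early target of the receptor, had 195 and 146 CPM (log2 0.42), and Nfkbia had 774 and 775 CPM. In non-mitotic cells 6 of 18 were called higher, against 3.69% of all genes past the floor there. Of 15 immediate early genes past the floor only Fosb was called, with 29.3 CPM with anti-PD-L1 and 11.2 CPM untreated (log2 1.38, 1.03 to 1.75), and Fos, Junb and Jund had log2 ratios of 0.27, 0.16 and -0.02. In macrophage-gated cells 6 of 18 immediate early genes were higher, with a median of 0.41 against 0.16 in CD8 T cells. Fosb had a log2 ratio of 0.63 there. Its UMIs were in 21.26% and 15.69% of thinned macrophage-gated cells, and in 7.13% and 2.80% of CD8 T cells. The part of macrophages in the CD8 T cell values of Fosb was not tested. The NF-kB list had 3 of 15 past the floor higher (Tnip3, Nfkb2 and Bcl3), with a median of 0.30, against 5 of 16 and a median of 0.48 in macrophage-gated cells. Bcl3 fell under the call in 3 alternative settings and Nfkb2 in 1. Tnip3, which binds the NF-kB inhibitor A20, had 37.1 CPM with anti-PD-L1 and 14.4 CPM untreated (log2 1.37), and a log2 ratio of 1.74 in macrophage-gated cells of the same libraries.

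Receptors for homing and for other signals were higher in small sets. Cxcr6, which holds T cells near CXCL16-producing cells, had 311 CPM with anti-PD-L1 and 140.4 CPM untreated (log2 1.15, 1.04 to 1.25). Its share of thinned cells was 48.2% (45.1% to 51.4%) with anti-PD-L1 and 25.2% (22.97% to 27.60%) untreated, and it was at 0 in macrophage-gated cells of both libraries. The chemokine receptor Ccr2 had a log2 ratio of 0.96. Of the 14 homing genes past the floor 3 were higher, with a list median of 0.20. Klrc1, which encodes the inhibitory receptor NKG2A, had 374 CPM with anti-PD-L1 and 178 CPM untreated (log2 1.07), while its relatives Klrc2, Klrd1 and Klrk1 had log2 ratios of 0.21, 0.49 and -0.002. Of 8 killer lectin-like receptor genes past the floor 1 was higher and 1 lower, with a median of 0.36. Of 10 genes of the IL-2 receptor and STAT5 list past the floor 3 were higher, with a median of 0.30. Cish had 55.4 CPM with anti-PD-L1 and 35.1 CPM untreated, Socs1 46.9 and 29.2 CPM, and Pim1 292 and 187 CPM. Socs1 had a log2 ratio of 1.22 in macrophage-gated cells too. The survival and apoptosis list had 2 of 12 higher, Pim1 and Gadd45b, and a median of 0.23. Of 10 heat shock genes 1 was higher, Hspa1a, with 140.0 CPM with anti-PD-L1 and 78.8 CPM untreated, and their median was 0.001.

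All 14 interferon response genes past the floor had ratios above 0, with a median log2 ratio of 0.28, and 2 were called, Isg15 and Socs1. Socs1 fell under the call in 2 of the alternative settings, at 0.49 at the lowest. In macrophage-gated cells 6 of 21 were higher, with a median of 0.39. Isg15, a ubiquitin-like interferon target, had 71.9 CPM with anti-PD-L1 and 31.6 CPM untreated (log2 1.19, 0.97 to 1.41). Thinned CD8 T cells with an Isg15 UMI made up 13.96% with anti-PD-L1 and 7.48% untreated. These shares were 71.65% and 55.11% in macrophage-gated cells and 31.03% and 36.69% in melanoma-gated cells. The part of those cells in the CD8 T cell values of Isg15 was not tested. In non-mitotic cells 11 of the 14 interferon response genes were above 0. None of 12 genes of MHC class I presentation was called, with a median of 0.19, and the 3 immunoproteasome genes Psmb8, Psmb9 and Psmb10 had log2 ratios of -0.11, -0.13 and -0.05. Effector transcription factors had a median log2 ratio of 0.36 with none of 8 called, the closest being Id2 at 484 CPM with anti-PD-L1 and 324 CPM untreated (log2 0.58).

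The other named genes that were higher do not share a list. Lilrb4a, an inhibitory receptor of the LILR family, had 39.0 CPM with anti-PD-L1 and 15.5 CPM untreated. Its UMIs were in 10.94% and 5.46% of thinned CD8 T cells, but in 66.14% and 57.66% of macrophage-gated cells. Lfng, a glycosyltransferase that modifies Notch, had 79.1 and 31.1 CPM, and a log2 ratio of 1.83 in macrophage-gated cells. Cd7, Dgat1 (which makes triglycerides) and Ifitm1 had 39.0 and 17.1, 88.1 and 39.3, and 171 and 75.6 CPM with anti-PD-L1 and untreated. Ifitm1 was also higher in macrophage-gated cells, by 3.41 on the log2 scale. Rnaset2a and Rnaset2b, near-identical copies on chromosome 17 whose reads the counting could split, had log2 ratios of 1.40 and 1.23. The ribosomal genes Rps29 and Rpl10 had log2 ratios of 0.96 and 0.90, and 0.89 and 1.01 in macrophage-gated cells. Of the 14 named genes higher, 6 were at least 1.5-fold higher in macrophage-gated cells as well, and of the 14 lower 1, Tspan32, was lower there. Over all 4536 genes past the floor in macrophage-gated cells, 7.8% were higher and 3.0% lower. The named genes were chosen by their level in CD8 T cells and some are sparse in macrophage-gated cells. Ifitm1 UMIs, for example, were in 7.87% of thinned macrophage-gated cells with anti-PD-L1 and 0.73% untreated. The counts of named genes are therefore not comparable with these percentages. What differed between the libraries in both cell types cannot be told apart from a response of the CD8 T cells. The median of the 24 ribosomal protein genes past the floor was -0.16.

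Genes of memory and progenitor T cells were the main group that was lower. Tcf7 had 36.8 CPM with anti-PD-L1 and 88.3 CPM untreated (log2 -1.26, -1.47 to -1.07). Cells with a Tcf7 UMI made up 7.03% (5.52% to 8.80%) with anti-PD-L1 and 17.04% (15.1% to 19.1%) untreated after thinning, and 15.3% and 25.7% before it. In macrophage-gated cells the share was 0.79% with anti-PD-L1 and 0 of 274 cells untreated, which allows up to 1.09%. Positive cells held 1.39 and 1.33 Tcf7 UMIs on average, a mean that cannot lie under 1. Slamf6, a surface marker of progenitor cells, had 28.0 CPM with anti-PD-L1 and 69.8 CPM untreated (log2 -1.32, -1.55 to -1.09). Its thinned shares, 6.43% with anti-PD-L1 and 13.9% untreated, compare with 7.09% and 6.93% of macrophage-gated cells and with 0 of 29 and 1 of 139 melanoma-gated cells. The share with anti-PD-L1 was thus at the macrophage level and the untreated share above it. Dapl1, a gene found in naive and memory CD8 T cells, had 22.0 CPM with anti-PD-L1 and 74.2 CPM untreated (log2 -1.75, -2.00 to -1.51), and 2.31% and 8.48% of thinned cells had a UMI.

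Of 13 of 18 memory and progenitor genes past the floor none was higher and 5 were lower, with a median log2 ratio of -0.37. Another was Klf2, a transcription factor that drives egress from tissue, at 73.4 CPM with anti-PD-L1 and 131 CPM untreated (log2 -0.84). Klf2 differed by cell cycle. Its log2 ratio was -2.07 (-2.40 to -1.75) in cells that were mitotic after thinning and -0.28 (-0.47 to -0.10) in the other cells. Ccr7, the lymph node chemokine receptor, had 355 CPM with anti-PD-L1 and 460.0 CPM untreated (log2 -0.37), and 36.4% and 50.3% of thinned cells had a UMI. Lef1 and Tox had 26.9 and 36.9, and 36.0 and 48.5 CPM, under the call. Il7r, Bach2, Foxo1 and Satb1 had log2 ratios of -0.19, -0.16, 0.06 and 0.32, so the list did not move as 1 block.

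**Figure D2:**
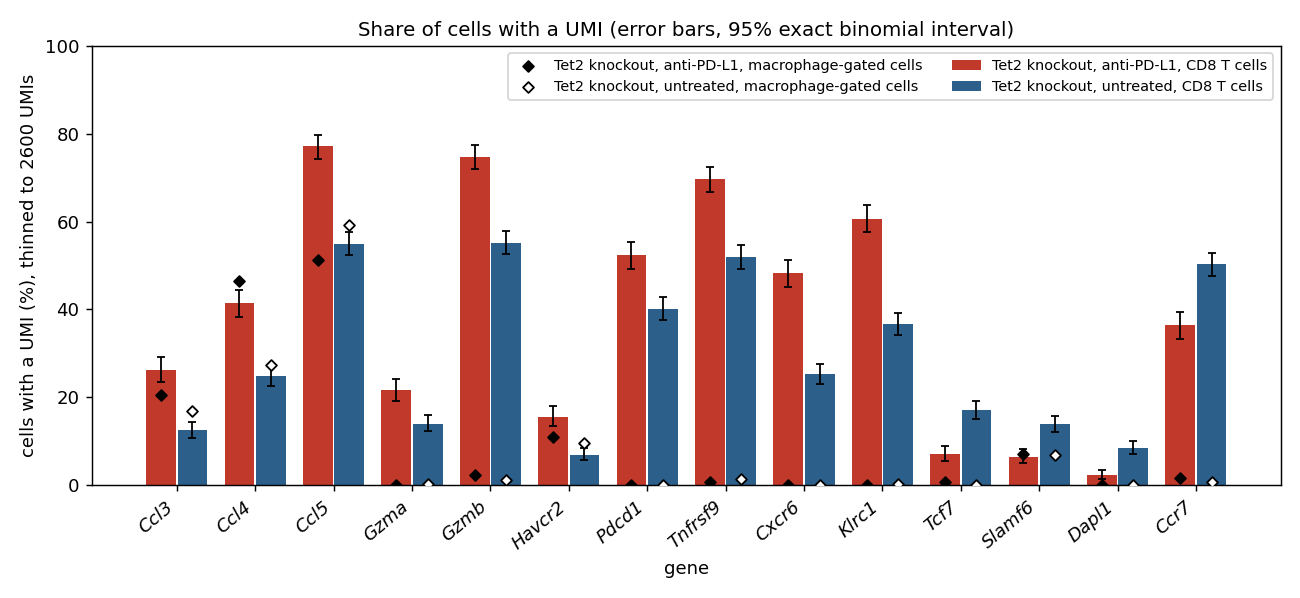
Share of knockout CD8 T cells with at least 1 UMI of a gene, after thinning each cell to 2600 UMIs; red bars are anti-PD-L1 (996 cells), blue bars untreated (1391 cells), error bars are 95% exact binomial intervals, and diamonds are macrophage-gated cells of the same library. Ccl3, Ccl4, Ccl5, Gzma, Gzmb, Havcr2, Pdcd1, Tnfrsf9, Cxcr6 and Klrc1 have taller bars with anti-PD-L1 (Gzmb 74.7% against 55.2%). Tcf7, Slamf6, Dapl1 and Ccr7 have shorter ones (Tcf7 7.03% against 17.04%).

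Among the lower genes outside the progenitor list, Rgs10, a regulator of G protein signalling, had 54.8 CPM with anti-PD-L1 and 117 CPM untreated (log2 -1.10, -1.27 to -0.93). Its UMIs were in 12.45% and 25.09% of thinned CD8 T cells, and in 43.31% and 49.64% of macrophage-gated cells. Izumo1r, the folate receptor 4 known from regulatory and anergic T cells, had 47.6 CPM with anti-PD-L1 and 86.4 CPM untreated (log2 -0.86). Hmgn1, a nucleosome-binding protein, had 149 and 254 CPM (log2 -0.78). Its UMIs were in 26.1% and 38.89% of thinned CD8 T cells, and in 68.97% and 72.66% of melanoma-gated cells. Macrophage-gated cells were 10.02% of kept cells with anti-PD-L1 and 13.15% untreated, and melanoma-gated cells 2.27% and 6.35%. The part of these cell types in the values of Rgs10 and Hmgn1 was not tested. Bmyc, Slc36a3os, Clec2i, Tspan32, Sdhaf1 and Ubac2 had log2 ratios between -1.06 and -0.78, and Slc36a3os is annotated as antisense to Slc36a3.

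MHC class II genes had the most negative ratios of the named genes, and most of their untreated UMIs were in few cells. Cd74, the invariant chain of MHC class II, had 19.0 CPM with anti-PD-L1 and 123 CPM untreated (log2 -2.69), and H2-Ab1 had 18.6 and 64.0 CPM (log2 -1.78). In the untreated library 9 of 1531 cells had 10 or more UMIs of Cd74, H2-Aa, H2-Ab1 and H2-Eb1 together, and they held 78.3% of these UMIs. No cell of 1017 with anti-PD-L1 had as many. The other cells had 49.0 CPM of the 4 genes with anti-PD-L1 and 61.7 CPM untreated. Leaving out the 9 cells was chosen after seeing the data. Without them the log2 ratios were -0.22 for Cd74 and -0.35 for H2-Ab1, under the call. H2-Aa, of whose untreated UMIs 1 cell held 22%, had a log2 ratio of -3.46 with the 9 cells and -0.61 without them. The second ratio is past 1.5-fold. Without the 9 cells, however, the mean of H2-Aa lies under the floor of 20 CPM, so it is not a call.

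Mitotic cells were a smaller share with anti-PD-L1 at equal depth. Cells with at least 4 UMIs of the 6 mitotic genes made up 18.1% (15.7% to 20.6%) with anti-PD-L1 and 26.2% (23.9% to 28.6%) untreated after thinning, and 34.1% and 41.5% before it. Of the cells that thinning left out, 20 of 21 with anti-PD-L1 and 129 of 140 untreated were non-mitotic. The loss thus fell mainly on non-mitotic cells of the untreated library. Summed levels of cycle genes moved little. None of 20 G2/M genes past the floor was called, with a median log2 ratio of -0.12, and 1 of 23 S phase genes was lower, with a median of -0.17. This was Dtl, a part of the ubiquitin ligase that limits replication licensing, at 52.5 CPM with anti-PD-L1 and 79.7 CPM untreated (log2 -0.60). A mitotic cell gives more UMIs to a sum than other cells do, at medians of 10868 against 5617 UMIs with anti-PD-L1 and 6532 against 3525 untreated. Neither glycolysis (17 genes, median 0.10) nor oxidative phosphorylation (23 genes, median -0.05) had a called member. The glycolytic gene Gapdh had 1588 CPM with anti-PD-L1 and 1135 CPM untreated (log2 0.48), and Ldha had 2098 and 2082 CPM. The TET and DNA methylation list had none of 6 called and a median of -0.26, with Dnmt1 and Uhrf1 at log2 ratios of -0.32 and -0.39.

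Named genes had to pass 1.5-fold in non-mitotic cells, so their difference there was set by the naming rule. In non-mitotic cells 168 of 4558 genes were higher, or 3.69%, and 94 were lower, or 2.06%, and 99 and 35 of them were also called in all CD8 T cells. In mitotic cells 151 of 4632 were higher, or 3.26%, and 70 were lower, or 1.51%. All 14 named genes higher and all 14 lower passed 1.5-fold in mitotic cells too, a set the naming rule did not use but whose cells are part of the sum it did use. The sizes were not equal. Serpinb9b had log2 ratios of 0.99 in non-mitotic and 2.30 in mitotic cells, Ifitm1 0.71 and 2.42, and Cd7 0.85 and 1.94, while Ccl4 had 1.52 and 1.11. Whether these differ beyond library variation was not tested. When the mitotic gate was applied to thinned cells, 57 and not 94 genes were lower in non-mitotic cells. In the unthinned gate 4 of 20 S phase genes past the floor and 2 of 6 G2/M genes were lower in non-mitotic cells.

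**Figure D3:**
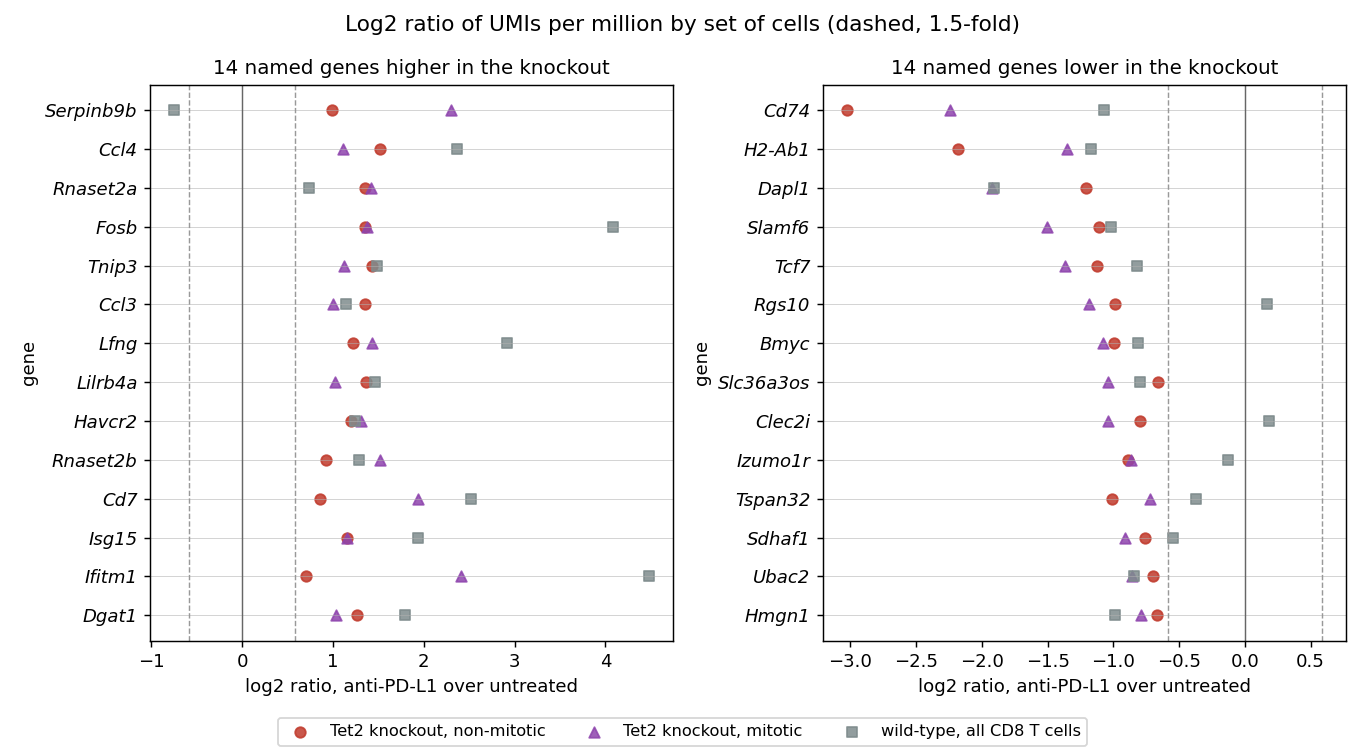
Log2 ratio of CPM, anti-PD-L1 over untreated, for the 14 named genes higher (left) and the 14 lower (right) in the knockout; red circles are non-mitotic and purple triangles mitotic knockout cells, grey squares all wild-type CD8 T cells, and dashed lines mark 1.5-fold. The naming rule placed the non-mitotic points beyond the dashed lines. The mitotic points, from cells that are part of the sum the rule used, lie beyond them too. The wild-type point of Serpinb9b (-0.75) lies on the opposite side from its knockout points.

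Knockout cells were also split by a Tcf7 or a Havcr2 UMI after thinning, and values of the splitting gene were left out. Within the 70 Tcf7-positive cells with anti-PD-L1 and the 237 untreated ones, Gzmb had 616 CPM with anti-PD-L1 and 232 CPM untreated (log2 1.41, 1.18 to 1.63). Ccl4 had 384 and 109 CPM there (log2 1.81), and Cxcr6 had 83.0 and 30.6 CPM (log2 1.44). The progenitor genes Slamf6 and Dapl1 had log2 ratios of -0.67 and -0.76 within Tcf7-positive cells. In the 926 and 1154 Tcf7-negative cells Gzmb had 2831 CPM with anti-PD-L1 and 1659 CPM untreated (log2 0.77), and Slamf6 and Dapl1 had log2 ratios of -1.13 and -1.77. Gzmb, Ccl4 and Cxcr6 were thus higher and Slamf6 and Dapl1 lower with anti-PD-L1 in both classes. Not every gene of these groups went this way within Tcf7-positive cells. Gzma had 31.4 CPM with anti-PD-L1 and 47.8 CPM untreated there, with 17 and 64 UMIs (log2 -0.61, -1.48 to 0.18). Nkg7 had log2 ratios of -0.14 (-0.25 to -0.02) in Tcf7-positive and 0.17 in Tcf7-negative cells. The progenitor gene Ccr7 had 0.12 (-0.08 to 0.31) and -0.40. Prf1 had too few UMIs in Tcf7-positive cells to compare, 1 with anti-PD-L1 and 3 untreated. A cell with no Tcf7 UMI at this depth can still express it.

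The split by Havcr2 gave another picture. Among the 841 and 1295 Havcr2-negative cells, Gzmb had 2506 CPM with anti-PD-L1 and 1196 CPM untreated (log2 1.07, 1.03 to 1.10), and Ccl4 had 1424 and 396 CPM (log2 1.85). Among the 155 and 96 Havcr2-positive cells, Gzmb had 3845 CPM with anti-PD-L1 and 4765 CPM untreated (log2 -0.31, -0.39 to -0.23). Gzma and Ifng were also lower in Havcr2-positive cells with anti-PD-L1, at log2 ratios of -0.60 and -0.31, against 1.29 and 1.32 in Havcr2-negative cells. Ccl4 had 3128 CPM with anti-PD-L1 and 2599 CPM untreated among Havcr2-positive cells (log2 0.27), and Cxcr6 had 533 and 290 CPM (log2 0.88). Havcr2-positive cells had higher CPM of Gzmb, Gzma, Ifng, Ccl4 and Cxcr6 than Havcr2-negative cells in both libraries, and their ratios between libraries were larger in cells without a Havcr2 UMI. Other genes went the other way, among them Klrc1 with log2 ratios of 1.33 in Havcr2-positive and 1.06 in Havcr2-negative cells, and Lfng with 1.77 and 1.30. The difference between the classes was not tested.

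**Figure D4:**
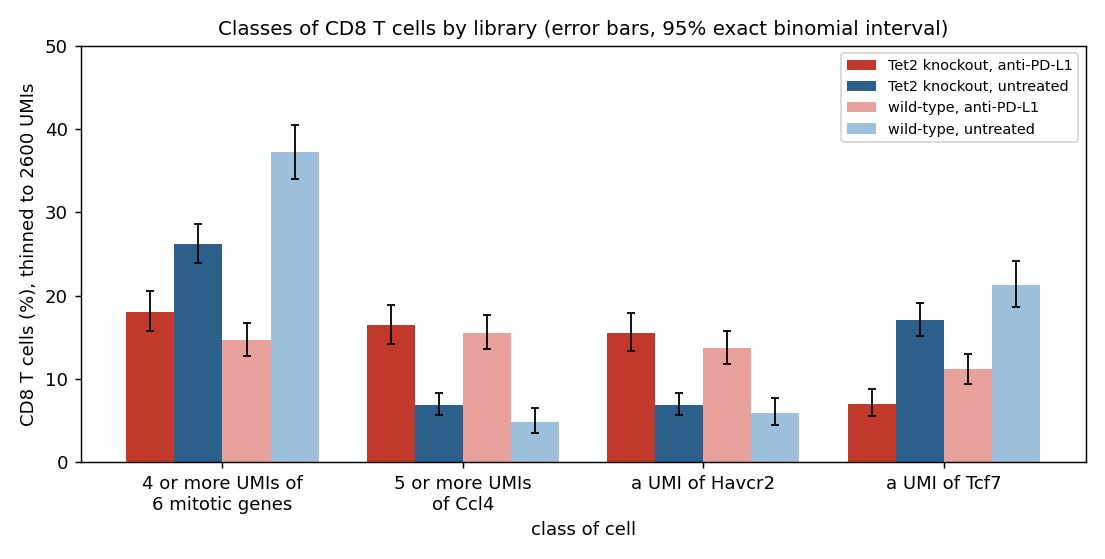
Share of CD8 T cells, thinned to 2600 UMIs, in 4 classes (4 or more UMIs of the 6 mitotic genes, 5 or more Ccl4 UMIs, a Havcr2 UMI, a Tcf7 UMI) for 1 library each of knockout with anti-PD-L1, knockout untreated, wild-type with anti-PD-L1 and wild-type untreated; error bars are 95% exact binomial intervals. In both genotypes the Ccl4 and Havcr2 classes are larger with anti-PD-L1 (Havcr2 15.6% against 6.90% in the knockout) and the mitotic and Tcf7 classes smaller.

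The wild-type pair is set beside these differences, though its libraries were less equal in size. They had 1297 CD8 T cells and 8139762 UMIs with anti-PD-L1, and 1085 cells and 4734332 UMIs untreated. The median CD8 T cell had 5480 UMIs with anti-PD-L1 and 3811 untreated, a difference in the same direction as in the knockout. Melanoma-gated cells were 2.62% of kept cells with anti-PD-L1 and 31.82% untreated. The part of size, depth and cell mix in the values below was not tested. In the wild type 503 of 4628 genes were higher with anti-PD-L1, or 10.9%, and 990 were lower, or 21.4%. The median log2 ratio was -0.19. Under TMM scaling the split was 654 higher and 642 lower in the wild type, and 126 higher and 50 lower in the knockout. The SD of log2 ratios over genes was 0.28 in the knockout and 0.66 in the wild type. Of the 116 genes higher in the knockout that passed the floor in both genotypes, 83 (71.55%) were higher in the wild type too, where 11.03% of all 4441 shared genes were, and 3 were lower. The 83 were 16.94% of the wild-type genes that were higher. Of the 44 lower in the knockout, 21 (47.73%) were lower in the wild type, where 20.54% of all were, and 4 were higher. Among the named genes, 13 of 14 that were higher passed 1.5-fold upwards in the wild type and 9 of 14 that were lower passed it downwards. The difference between genotypes was not tested, with 1 library per group.

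Some groups had like values in both genotypes. Havcr2-positive cells made up 15.6% with anti-PD-L1 and 6.90% untreated in the knockout, and 13.7% and 5.89% in the wild type. Tcf7-positive cells made up 7.03% and 17.04% in the knockout, and 11.2% and 21.3% in the wild type. Other groups were further apart in the wild type. The median log2 ratio was 1.70 for immediate early genes there against 0.16 in the knockout, -1.19 against -0.12 for G2/M genes, and 1.39 against 0.34 for T cell receptor signalling. Mitotic cells made up 14.7% with anti-PD-L1 and 37.3% untreated in the wild type. Within the progenitor list, Ccr7 had log2 ratios of -0.37 in the knockout and 1.25 in the wild type.

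**Figure D5:**
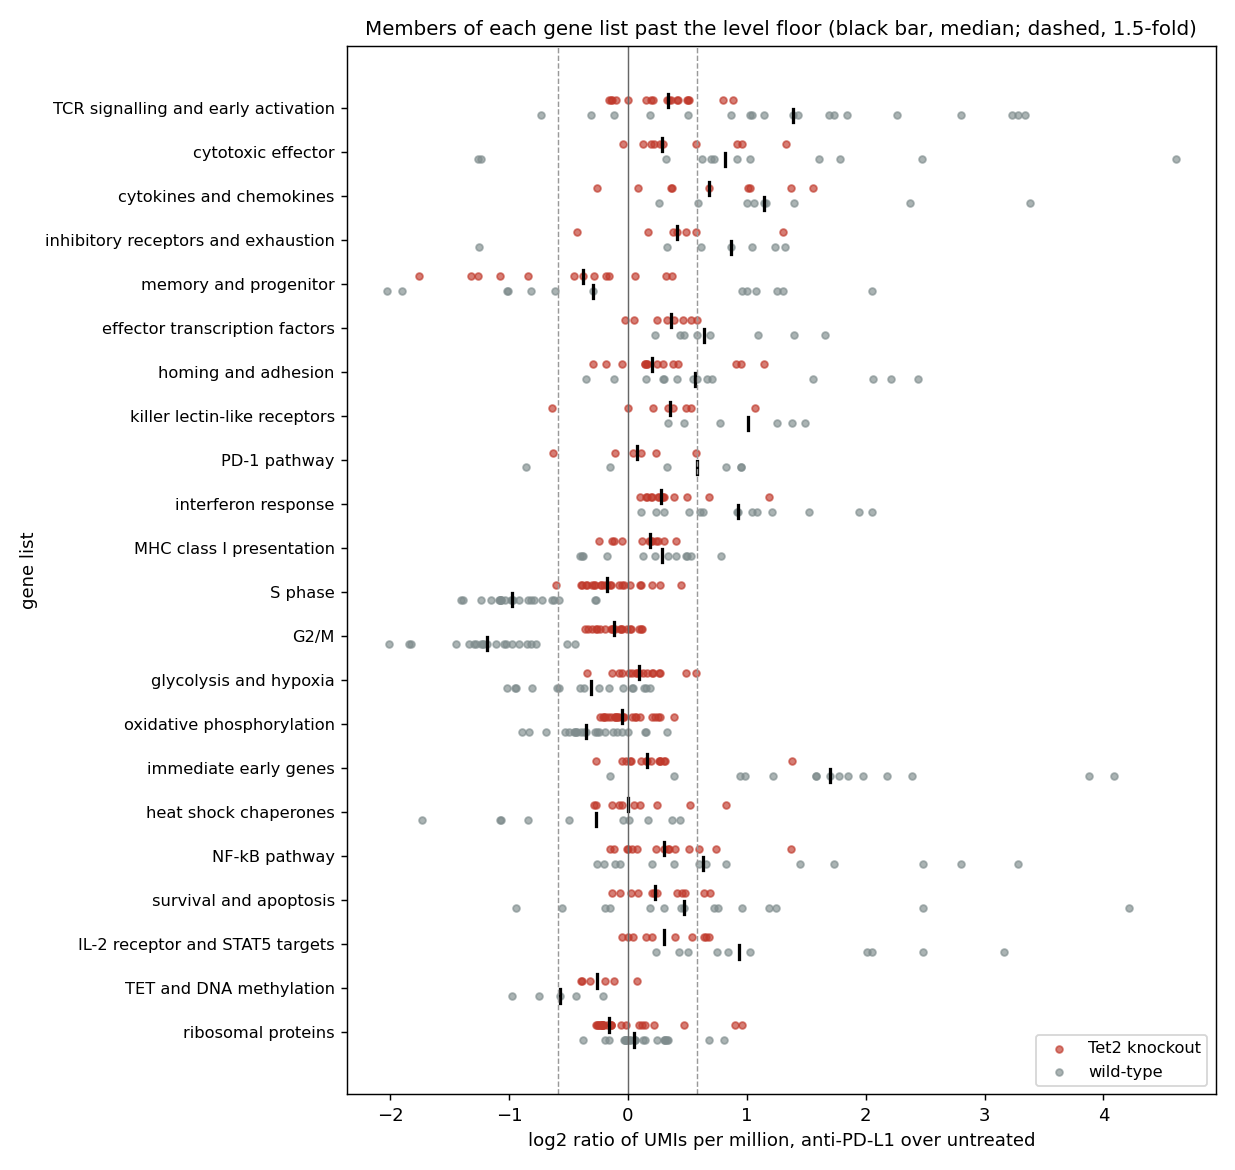
Log2 ratio of CPM, anti-PD-L1 over untreated, of every member past the floor of 20 CPM in 22 gene lists; red points are the knockout, grey points the wild type, black bars the list medians, and dashed lines 1.5-fold. In the knockout the medians run from -0.37 (memory and progenitor) to 0.68 (cytokines and chemokines), and the wild-type medians of cycle and immediate early genes lie further from 0.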

How the data were processed

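Droplet-based single-cell RNA libraries (10x Genomics 3′, version 2, per the labels' protocols) were deposited by the authors as raw UMI counts, 1 table per library. The submitters' processing notes name mm10 and list, for the series, bedtools, HTSeq, DESeq2, Bowtie2, HISAT2, Genrich 0.5 and Trim Galore 0.5.0. Which of these made the count tables is not stated, and the counter and annotation were not given in the sources used here. Each table lists most barcodes in 2 forms with unlike counts. The form with 2 hyphens (1346 barcodes with anti-PD-L1, 2312 untreated in the knockout) was used, and the other was an alternative. Of 20 samples in the series 4 were used, and 16 were not analysed here.

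Kept barcodes had 500 or more genes and no more than 10% mitochondrial UMIs. The 27916 genes of all tables were summed over gated cells per library and scaled to CPM. Ratios have exact conditional binomial 95% intervals, and shares exact Clopper-Pearson intervals (scipy 1.17.1). For ratios, 0 UMIs were replaced by 3. Cells were thinned to 2600 UMIs, without replacement. TMM factors came from edgeR 4.0.16. The procedure was tested on simulated counts. Named genes were the 15 with the largest and the 15 with the smallest ratio among genes past 20 CPM that had UMIs in at least 30 cells, no cell with over 20% of them, and a 1.5-fold difference in all 4 settings the text gives. Pseudogenes and predicted genes, mitochondrial, ribosomal and globin genes, receptor segments and gate genes were left out, and members of the gene lists could be named as well. Results of 1 such gene at each end and of some list members are not reported here. Members and lists were chosen with earlier results of these data known. Sources name no separate cultures or animals behind a library.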

Additional observations from a re-analysis of the deposited data

Results flagged for a closer look

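For 7 genes the ratio of anti-PD-L1 over untreated passed 1.5-fold in opposite directions in the knockout and the wild type. These differences between genotypes were not tested. Serpinb9b had a log2 ratio of 1.63 in the knockout and -0.75 in the wild type. Gzmc had 1.33 and -1.26, and in the knockout 1 cell held 31% of its UMIs with anti-PD-L1 and 42% untreated. Klf2 had -0.84 and 1.30, and its knockout ratio was -0.48 with every cell weighted equally. Hspa1a, a heat shock chaperone, had 0.83 and -1.73. The globin genes Hba-a1, Hbb-bs and Hbb-bt had -0.62, -0.84 and -2.13 in the knockout and 2.09, 2.02 and 3.52 in the wild type. Over the alternative settings their knockout ratios ran from -4.55 to 0.82, from -4.15 to 0.60 and from -3.62 to 0.21. The positive values came with stricter cell filters. Hbb-bt was positive only with at least 1000 genes and at most 5% mitochondrial UMIs.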

How the results depend on the processing

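No paired analysis was possible because each group is 1 library. With a floor of 50 CPM, 73 genes were higher and 20 lower with anti-PD-L1 in the knockout, 78 and 30 in non-mitotic knockout cells, and 254 and 572 in the wild type. With no floor the counts were 1375 and 1230, 1499 and 1338, and 2260 and 2899. Sums over thinned cells gave 92 lower genes in the knockout and 149 in its non-mitotic cells, and gates on thinned cells gave 57 in non-mitotic cells. TMM scaling gave 642 lower genes in the wild type. The mitotic share was 34.1% with anti-PD-L1 and 41.5% untreated without thinning, and 29.8% and 44.1% at 2 or more UMIs. The cause of these shifts was not tested, except that a floor changes the number of genes compared. With at least 1000 genes and at most 5% mitochondrial UMIs, Hba-a1, Hbb-bs, Hbb-bt and the erythroid median reversed to 0.70, 0.59, 0.21 and 0.70. With no UMI of macrophage, melanoma or B cell gate genes or Cd4, Hba-a1, Hbb-bs and the erythroid median reversed to 0.82, 0.60 and 0.71. Of 600 gene values over 10 settings, 535 stayed the same by the spread allowed, 60 moved and 5 reversed. Bcl3, Ccl9, Cish, Klf2, Nfkb2, Ptpn11, Socs1 and Ubac2 fell under 1.5-fold in 1 to 3 settings, and Cd74 and H2-Ab1 did without the cells rich in MHC class II UMIs. Low genes such as Prf1 and Cd274 are limited by depth.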
